A study of Mus musculus with 8 samples.

Results

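Gzma-positive Gzmc-negative natural killer (NK) cells were examined among the CD45.2+ cells of the mouse brain, in single-cell RNA sequencing with antibody hashtags. A barcode was taken as such a cell when it held at least 2 of 4 NK cell genes (Ncr1, Klrb1c, Xcl1 and Klre1), at least 1 unique molecular identifier (UMI, a count of 1 captured transcript) of Gzma, and no UMI of Gzmc, Cd3e, Cd3d or Cd79a. It also had to hold at least 500 UMIs and 200 genes, at most 5% mitochondrial UMIs, and a leading hashtag with a count of at least 50 that was at least 3 times the next. This gate held 942 of 46314 single-hashtag cells and 942 of the 2652 cells that carried the NK genes without Cd3e, Cd3d or Cd79a. Members were thus selected on the UMI counts of these genes in the cells themselves, so the levels of its genes, and every contrast of gated with other cells, are given as a description without a test.

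The cells came from 8 libraries, each 1 condition, of mice labelled as 16 weeks old. The WT strain was C57BL/6J. The App NL-G-F strain, titled APP in the labels and here, carries a humanised amyloid-beta sequence with the Swedish, Arctic and Iberian mutations knocked into the mouse App gene, so that the change is present in every cell and under the App promoter. Each genotype had controls, an acute colitis group that drank 2% dextran sulfate sodium (DSS) for 1 cycle of 7 days, a chronic colitis group given 3 cycles of 2% DSS for 5 days with water between them, and a food allergy group sensitised to ovalbumin with alum and then fed ovalbumin. Every library pooled 3 or 4 hashtags, 30 in all, and the labels do not tie a hashtag to an animal. A hashtag group (1 hashtag of 1 library) was used as the replicate, and because the groups are not stated to be separate mice, p-values measure only the spread between hashtag groups. For APP chronic colitis the study counts fewer animals than there are hashtags, so that some of its hashtag groups may share a mouse and its p-values may be too small. With 1 library per condition, a difference between libraries and a difference between conditions cannot be told apart. The animals had also received a CD45 antibody intravenously to mark blood cells, and since that label leaves no trace in the counts, NK cells from blood and from parenchyma are not separated here.

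NK cells are innate lymphocytes that kill target cells without prior sensitisation. They release perforin, which forms pores, and granzymes, which are serine proteases that enter through them. Whether an NK cell kills is set by a balance of activating and inhibitory receptors, many of which in mice belong to the Ly49 (Klra) and NKG2 (Klrc, Klrk1) families of lectin-like receptors. Conventional NK cells circulate and depend on the transcription factor Eomes, whereas type 1 innate lymphoid cells (ILC1) are mostly tissue-resident, lack Eomes and carry Itga1 and Cxcr6. Granzyme A is common in conventional NK cells, and granzyme C lies in the granzyme B cluster on another chromosome.

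The 250 bases before the RefSeq start of Gzma (GRCm38.p6, chr13:113100982-113101231, minus strand) and of Gzmc (chr14:56234658-56234907, minus strand) are shown because these genes define the gate. Capitals mark the heptamer AACCACA, the reverse complement of the RUNX core TGTGGTT, with 44 bases between its end and the Gzma start and 168 bases between its end and the Gzmc start.
Gzma: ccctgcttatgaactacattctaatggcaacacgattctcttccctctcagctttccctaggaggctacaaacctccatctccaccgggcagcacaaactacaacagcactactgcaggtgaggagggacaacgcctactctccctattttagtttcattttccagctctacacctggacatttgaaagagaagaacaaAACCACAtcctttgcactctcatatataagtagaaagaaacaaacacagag
Gzmc: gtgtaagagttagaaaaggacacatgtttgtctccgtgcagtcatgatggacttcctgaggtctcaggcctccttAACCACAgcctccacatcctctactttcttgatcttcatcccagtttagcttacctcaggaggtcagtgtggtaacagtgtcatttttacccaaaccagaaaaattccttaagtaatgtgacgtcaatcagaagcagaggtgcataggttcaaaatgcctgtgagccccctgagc
The RUNX core was found on either strand in 5.27% of 32851 RefSeq promoter windows of 300 bases, and it was also present in the windows of Gzmb and Ncr1 and in 1 of 2 windows of Klre1, but not in those of Prf1 or Eomes. The T-box core AGGTGT, a sequence that Eomes and T-bet can bind, was found in the windows of Gzma, Gzmc and Prf1 and in 13.7% of all windows. The ETS core AGGAAGT was found in those of Gzmc and Prf1 and in 9.35% of all windows. These matches describe letters only.

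Before the results, the libraries and hashtag groups that stood apart were identified. The summed level of 10 immediate-early genes in the cells outside the NK gate fell into 2 sets, 14 hashtag groups between 691 and 1996 CPM (UMIs of the genes scaled to a common total) and 16 between 3779 and 10144 CPM, and each of the 8 libraries held groups of both sets. Inside the gate the same 10 genes summed to a median of 749 CPM in the low set (562 to 4068 CPM) and 4382 CPM in the high set (2857 to 6888 CPM). In all libraries together, 1278 of 45004 distinct barcodes occurred in at least 2 libraries, and 53 of the 942 gated cells had such a barcode, 1 of these barcodes being gated in more than 1 library. Libraries held 26988646 to 56307389 UMIs, and the gated cells of a library held 374841 to 658283.

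The levels of the gate genes follow in part from the rule and are given as a description. Across the 26 hashtag groups with at least 10 gated cells, the gate gene Ncr1, which encodes the activating receptor NKp46, had a lowest level of 467, a median of 848 and a highest of 1413 CPM. Gzma had 2202, 4786 and 7667 CPM and Xcl1, the chemokine lymphotactin, 141, 535 and 915 CPM. Pooled over the gated cells, Ncr1 was detected in 90.3% of cells, Klrb1c (NK1.1) in 91.0% and Klre1, a lectin-like receptor, in 81.1%. The 12 genes of the NK cell list that the gate did not use were each detected in at least 46.4% of gated cells. The adaptor genes Tyrobp (DAP12) and Fcer1g, through which activating receptors signal, were detected in 98.0% and 99.4% of cells, and Nkg7, a granule membrane protein, in 98.7%.

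Markers of other lineages were low in most gated cells, but some genes of the T cell list were detected in many. The co-receptor genes Cd8a, Cd8b1 and Cd4 stood at 0.260, 0.520 and 1.30 CPM, and Cd3g, which the gate did not use, at 31.7 CPM in 5.73% of cells against 1224 CPM in Ccl5-positive CD8 T cells. The T cell receptor constant genes Trbc1 and Trbc2 were detected in 24.0% and 20.3% of gated cells. At least 2 of the 13 genes of the T cell list were detected in 326 gated cells (34.6%) and at least 3 in 93 (9.87%). The list summed to 440 CPM in the gated cells, with Tcf7 its most abundant gene at 186 CPM, against 4800 CPM in T cells. The source of the Trbc1 and Trbc2 UMIs was not tested. Free RNA sets a floor for detection in droplet data, and it was looked at here for Gzma only. The B cells had a median depth of 2521 UMIs and the gated cells 3268.5 UMIs. Gzma had a UMI in 0.273% of the 12097 B cells, which should lack it, a value that does not measure the floor of Trbc1 or Trbc2. It had a UMI in 5.45% of the Ccl5-positive CD8 T cells and in 21.5% of the 442 Gzmc-positive NK cells. The microglial transcription factor gene Sall1 was at 0, and the erythroid list summed to 2.08 CPM, with the globin gene Hbb-bt at 0.

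Some myeloid genes were higher, the neutrophil genes most, and these were carried by few cells. The summed neutrophil list ranged over hashtag groups from 18.8 CPM to 57084 CPM, with a median of 175 CPM. At least 2 of its 10 genes were detected in 114 gated cells (12.1%). In 26 gated cells (2.76%), at least 3 of 6 neutrophil genes were detected, and these cells held 98.7% of the S100a8 UMIs of the gate and had a median of 7527.5 UMIs, against 3240.5 UMIs in the other gated cells. By library, 11 of the 26 lay in APP acute colitis, 7 in WT food allergy, 4 in WT chronic colitis, 2 in WT acute colitis and 1 each in APP chronic colitis and food allergy, and none in either control. Values without these 26 cells are given beside the named neutrophil genes that could still be tested. The summed macrophage list had a median of 263 CPM (0 to 7195 CPM over groups), with Lyz2 its most abundant gene at 654 CPM pooled, and the B cell list a median of 168 CPM (70.7 to 2277 CPM). The dendritic cell list had a median of 373 CPM (114 to 12564 CPM), with Cd74 its most abundant gene at 1233 CPM pooled, and at least 2 of its 9 markers were detected in 74 gated cells (7.86%).

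**Figure D1:**
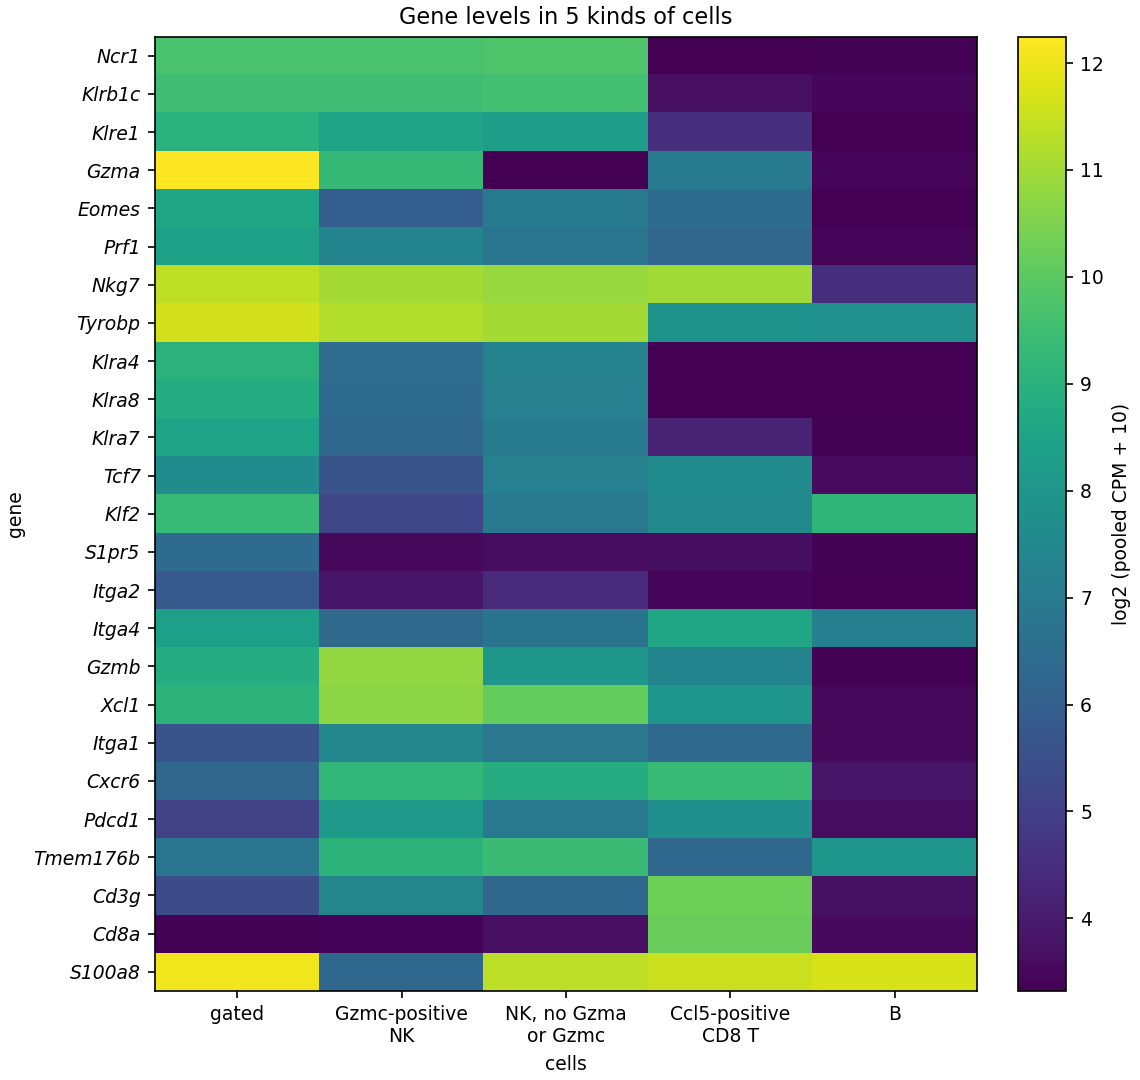
Heat map of 25 genes (rows) in 5 kinds of cells (columns): the gated cells, the Gzmc-positive NK cells, NK cells with neither granzyme, Ccl5-positive CD8 T cells and B cells. Colour is log2 of the pooled CPM with 10 CPM added and is to be read along a row; Eomes was 377 CPM in the gated cells against 53.9 CPM in the Gzmc-positive NK cells.

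The genes that set the gated cells furthest apart from all other single-hashtag cells included receptor genes, granule genes and the transcription factor gene Eomes. The activating Ly49 receptor genes Klra4 (Ly49D) and Klra8 (Ly49H) stood at 518 and 445 CPM inside the gate against 5.57 and 5.42 CPM outside it. Eomes was 377 CPM against 11.4 CPM, and the lectin-like receptor gene Klri2 243 CPM against 5.43 CPM. Prf1, which encodes perforin, was 323 CPM against 10.5 CPM, and Serpinb9, an inhibitor of granzyme B, 355 CPM against 21.4 CPM. Il2rb, the beta chain through which NK cells take up IL-15 signals, was 1319.6 CPM against 129 CPM, and Klrk1, which encodes the activating receptor NKG2D, 627 CPM against 49.5 CPM. These last 2 were no higher than in other NK cells, with Il2rb at 1822 CPM in Gzmc-positive NK cells and 1596 CPM in those with neither granzyme, and Klrk1 at 633 and 696 CPM.

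In the granule machinery, 17 of 21 listed genes were detected, and Gzmc, which the gate sets to 0, and its neighbours Gzmd, Gzme and Gzmf were at 0. The lowest, median and highest hashtag group values of Prf1 were 176, 282 and 570 CPM, and those of Gzmb, which encodes the caspase-activating granzyme, 119, 460.2 and 1196 CPM, so that Gzmb varied more widely between groups than Prf1. Prf1 was detected in 57.4% of cells and Gzmb in 47.3%. Gzmk, a granzyme of memory CD8 T cells, was 23.1 CPM in the gated cells against 444 CPM in Ccl5-positive CD8 T cells. Among secreted products, Ccl5 was detected at 9694 CPM and Ifng at 86.0 CPM, the latter in 19.1% of cells.

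Most gated cells carried transcripts of several Ly49 genes at once. Of 6 Klra genes (Klra1, Klra3, Klra4, Klra7, Klra8 and Klra9), 100 gated cells had none, 187 had 1, 265 had 2, 248 had 3, 121 had 4, 20 had 5 and 1 had all 6. At least 1 was detected in 89.4% of gated cells and 58.4% of Gzmc-positive NK cells, and at least 2 in 69.5% and 14.7%. After each cell was thinned to 1000 UMIs, at least 2 were detected in 36.2% of 931 gated and 6.59% of 440 Gzmc-positive cells, with 11 and 2 shallower cells left out. Klra genes are near-identical copies, so reads may have been split between them and the level of each single member is uncertain.

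The rule put the gated cells beside the Gzmc-positive NK cells, and the pair was compared in 15 hashtag groups that held at least 10 of each. In log2 ratios of CPM with 10 CPM added, 23 of 3494 genes were higher in the gated cells in every one of these groups and 36 were lower in every group. Both kinds had similar depth (medians 3268.5 and 3340 UMIs) and similar levels of some receptors, with Ncr1 at 822 against 806 CPM, Klrb1c at 726 against 722 CPM and Klrk1, which the gate did not use, at 627 against 633 CPM. Of the other gate genes, Klre1 was 504 against 356 CPM and Xcl1 537 against 1667 CPM.

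Eomes, the factor that separates conventional NK cells from ILC1, was, over the hashtag groups with at least 10 cells of a kind, lowest at 167, had a median of 356 and was highest at 615 CPM in the gated cells, and 0, 40.8 and 161 CPM in the Gzmc-positive cells, with no overlap. The median log2 ratio was 2.77 (SD 1.10, n = 15), with the gated cells higher in 15 of 15 groups. Tbx21 (T-bet), the T-box factor common to both lineages, was 179 against 217 CPM and higher in 6 of 15 groups, and Runx3 was 156 against 158 CPM. Klf2, which drives the genes for leaving tissue, was 657 against 27.2 CPM, with a median log2 ratio of 4.10 (SD 1.66), and Tcf7, a factor of early NK cells, was 186 against 39.4 CPM with a ratio of 2.40. Of 20 listed transcription factors, 3 were higher and 1 was lower in every group.

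Among homing and adhesion genes, Itga4 (the alpha-4 integrin chain, for entry across vessel walls) was lowest at 75.9, had a median of 297 and was highest at 466 CPM in the gated cells, and 38.6, 68.0 and 184 CPM in the Gzmc-positive cells, so that the ranges overlapped, with the gated cells higher in 15 of 15 groups. S1pr5, the sphingosine-phosphate receptor for NK cell egress, was 76.7 against 1.74 CPM, Itga2 (CD49b) 46.3 against 4.06 CPM and Ccr2 307 against 154 CPM. Cxcr6, a receptor of tissue-resident lymphocytes, ran the other way: the gated cells had 0, 40.8 and 343 CPM and the Gzmc-positive cells 249.9, 588 and 873 CPM as lowest, median and highest, a median log2 ratio of -2.51. Itga1 (CD49a) was 39.5 against 164 CPM and lower in 14 of 15 groups. Of 13 listed ILC1 genes, none was higher and 8 were lower in every group, Gzmc among them by the rule.

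Receptors and effector genes divided between both kinds of cells. Klra4, Klra8, Klra7 and Klra1 were higher in the gated cells, at 518, 445, 349.8 and 73.3 CPM against 82.3, 76.5, 68.4 and 5.80 CPM, whereas the inhibitory Klra9 (Ly49I) was 209 against 439 CPM and lower in 12 of 15 groups. The maturation receptor Klrg1 was 52.0 against 2.32 CPM, and the IL-18 receptor chains Il18r1 and Il18rap were 127 and 134 against 38.8 and 46.4 CPM. Prf1 was 323 against 153 CPM and higher in 13 of 15 groups, but Gzmb was 452 against 1783 CPM and lower in 14. Xcl1 was lower in 15 of 15 groups. Also lower were Pdcd1 (PD-1), at 23.1 against 269 CPM, Zfp683 (Hobit, a factor of tissue residency), at 10.4 against 124 CPM, and Tnfsf10 (TRAIL), at 29.6 against 129 CPM.

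For 14 of the genes, detection was also compared after thinning each cell to 1000 UMIs; Klrg1, Pdcd1 and most others named above were not among them. Eomes was then detected in 29.3% of gated and 3.41% of Gzmc-positive cells (63.4% and 10.4% before thinning), and Klf2 in 41.2% and 2.27% (66.5% and 5.20% before thinning). Cxcr6 was detected in 6.34% and 48.4%, Gzmb in 26.0% and 60.0%, and Ncr1 in 57.8% and 56.4% of thinned cells.

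**Figure D2:**
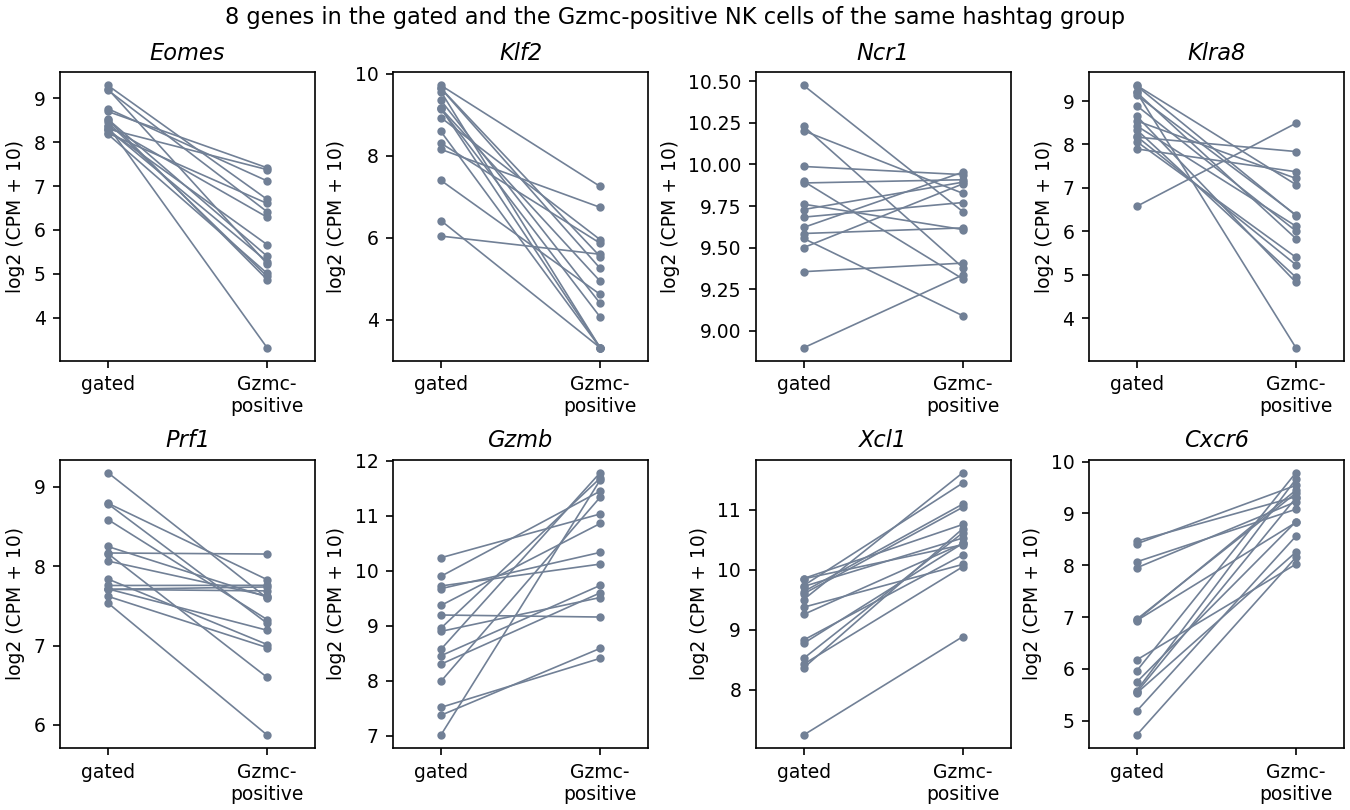
Level of 8 genes (log2 of CPM with 10 CPM added, vertical axis) in gated and Gzmc-positive NK cells, each line joining the 2 values of 1 of 15 hashtag groups. The lines fall from gated to Gzmc-positive cells for Eomes and Klf2 in 15 of 15 groups and rise for Xcl1 in 15 of 15.

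At the edge of the gate, the 1268 NK cells with no Gzma UMI, just outside, had Eomes at 118 and Cxcr6 at 448 CPM, and the 92 gated cells with 1 Gzma UMI, just inside, had Eomes at 308 and Cxcr6 at 130.2 CPM. The 190 gated cells with 2 to 5 Gzma UMIs had Eomes at 373 and Cxcr6 at 162 CPM, so that Cxcr6 did not fall steadily with Gzma. The 660 gated cells with at least 6 Gzma UMIs had Eomes at 387 and Cxcr6 at 33.5 CPM. On the Gzmc side, 29 NK cells with Gzma and 1 Gzmc UMI had Eomes at 344 CPM, close to the gated cells, whereas 66 with Gzma and at least 2 Gzmc UMIs had 42.6 CPM. The 145 cells that met the gate except for a UMI of Cd3e or Cd3d had Eomes at 219.8 CPM.

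The gated cells were not uniform. Of the 914 gated cells without UMIs of several neutrophil, plasma or mast cell genes, 177 had a UMI of S1pr5 and 737 had none, at median depths of 2843 and 3317 UMIs, and the pooled levels are a description since the split used the same cells. The S1pr5-positive cells had more of the late maturation genes Klrg1 (191 against 26.9 CPM), Itgam (CD11b, 215 against 58.9 CPM) and Zeb2, a repressor needed for terminal maturation (205 against 61.2 CPM). They also had more Gzma (9748 against 4165 CPM), Ccl5 (20054 against 8102 CPM) and Prf1 (657 against 276 CPM). Xcl1 was 258 against 614 CPM, Cxcr6 3.44 against 82.1 CPM and Mki67, a marker of dividing cells, 6.88 against 86.8 CPM, each lower in the S1pr5-positive cells of all 8 libraries.

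Smaller subsets pointed elsewhere. The 51 Mki67-positive cells, with a median of 8482 UMIs against 3132, had Ccl5 at 3321 against 11185 CPM and Klra8 at 164 against 514 CPM, and S1pr5 at 3.82 against 92.7 CPM. The 105 Itga1-positive cells, with medians of 3406 against 3225 UMIs, had Cxcr6 at 258 against 44.0 CPM and Inpp4b, a lipid phosphatase, at 255 against 58.2 CPM, both higher in 8 of 8 libraries. Their Eomes was 330.5 against 401 CPM and higher in only 4 of 8 libraries, while their Gzma was 2583 against 5405 CPM.

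**Figure D3:**
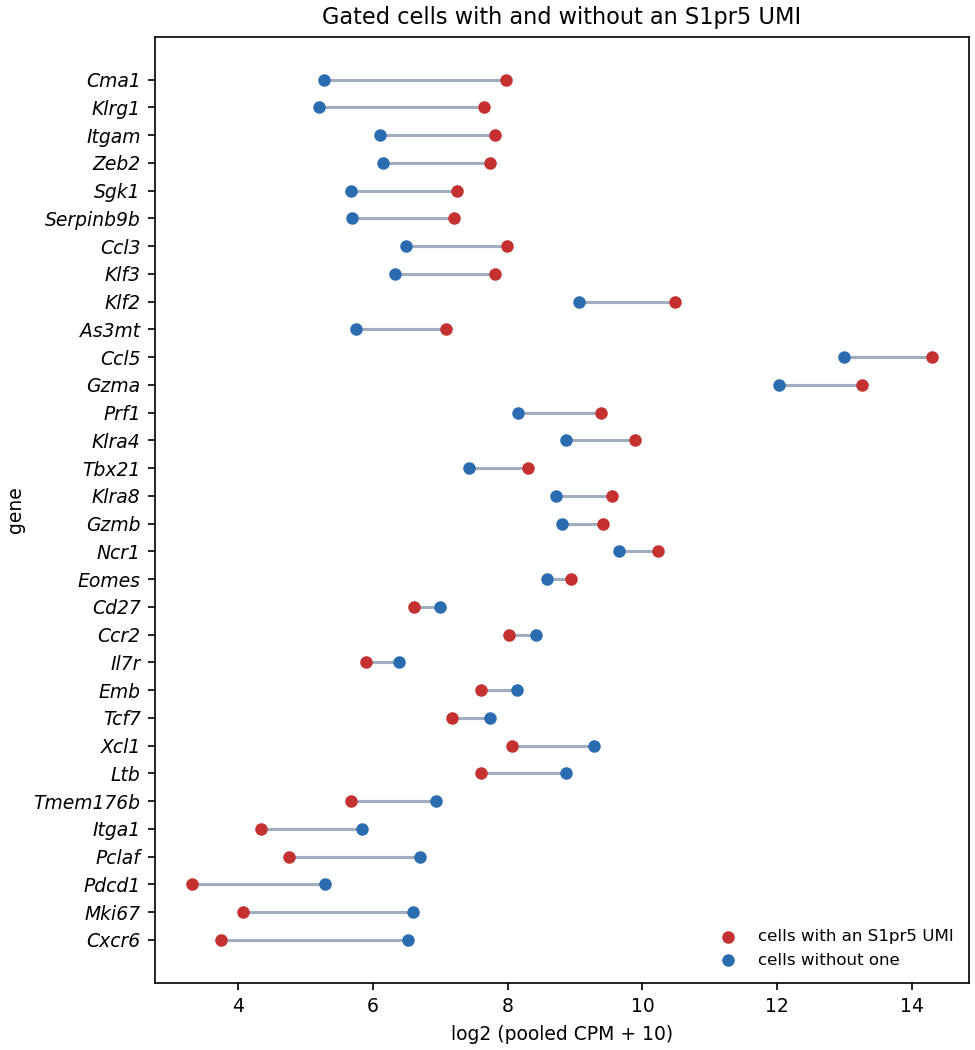
Level of 32 genes (rows, horizontal axis log2 of the pooled CPM with 10 CPM added) in the 177 gated cells with a UMI of S1pr5 (red points) and the 737 without one (blue points), joined by a line per gene. Cma1, Klrg1 and Itgam, at the top, were higher in the S1pr5-positive cells, and Cxcr6, Mki67 and Pdcd1, at the bottom, were lower.

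Cma1, which encodes a mast cell chymase and lies beside the granzyme B cluster (GRCm38, chr14:55941451-55944675, with Gzmb at chr14:56258838-56262260), was detected in 128 gated cells (13.6%). The share was 0.905% in Gzmc-positive NK cells, 1.66% in NK cells with neither granzyme, 1.31% in T cells and 1.14% in B cells, at medians of 3340, 3021, 2899 and 2521 UMIs. By library the share of gated cells was 12.1%, 18.9%, 17.5% and 13.0% in WT control, acute, chronic and allergy libraries, and 9.80%, 12.2%, 24.2% and 6.60% in the matching APP libraries, whereas the share of B cells was 0.721% to 2.30%. Cma1 was 243 CPM in the S1pr5-positive gated cells against 28.9 CPM in the others. The gene was chosen after its values were seen. A single cell with further mast cell genes held 107 of the 342 Cma1 UMIs; without it Cma1 was 61.2 CPM in 127 gated cells.

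The share of gated cells among single-hashtag cells was compared between conditions over hashtag groups of at least 50 cells. As lowest, median and highest value it was 0.485%, 2.28% and 3.58% in WT control, 1.72%, 3.22% and 3.70% in WT acute colitis, 0.898%, 2.23% and 3.89% in WT chronic colitis, and 1.08%, 1.61% and 2.70% in WT food allergy. In APP mice it was 1.90%, 2.10% and 2.99% in control, 1.47%, 2.55% and 3.85% in acute colitis, 0.796%, 1.48% and 2.23% in chronic colitis, and 0.824%, 1.82% and 2.26% in food allergy. All 8 ranges overlapped, and the 4 WT control groups alone spanned most of the range.

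The mean share was 2.16% ± 1.35 (SD, n = 4) in WT control and 2.27% ± 0.497 (SD, n = 4) in APP control, a difference of 0.116 percentage points with an exact permutation p of 0.857 (two-sided). Among WT mice with acute colitis it was 2.97% ± 0.947 (SD, n = 4), and among APP mice with acute colitis 2.62% ± 1.20 (SD, n = 3). A pair of the WT acute colitis groups held only 108 and 54 cells, with 4 and 2 gated; in groups of at least 200 cells the WT mean was 2.23% (n = 2), and its difference from control was 0.0755 in place of 0.811 percentage points. The lowest p of the 10 comparisons was 0.114 (exact permutation test), for APP chronic colitis, at 1.50% ± 0.601 (SD, n = 4), against its control, and all 10 adjusted p-values were 0.857. With 3 or 4 hashtag groups on each side, p could not fall below 0.0286.

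Pooled over a library, the share ranged from 1.50% in WT chronic colitis (95% exact binomial interval 1.19% to 1.87%) to 2.99% in APP acute colitis (2.59% to 3.44%). These intervals cover counting error only and are narrower than the range over hashtag groups of a library. Within the immediate-early sets the order of the libraries changed: in WT control the share was 0.872% in the low set and 3.27% in the high set, and in APP acute colitis 3.85% and 2.09%. Of the NK cells of a library, the gated share was lowest at 21.3% in APP food allergy, which also held the most Gzmc-positive NK cells (131), and highest at 53.1% in APP acute colitis.

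**Figure D4:**
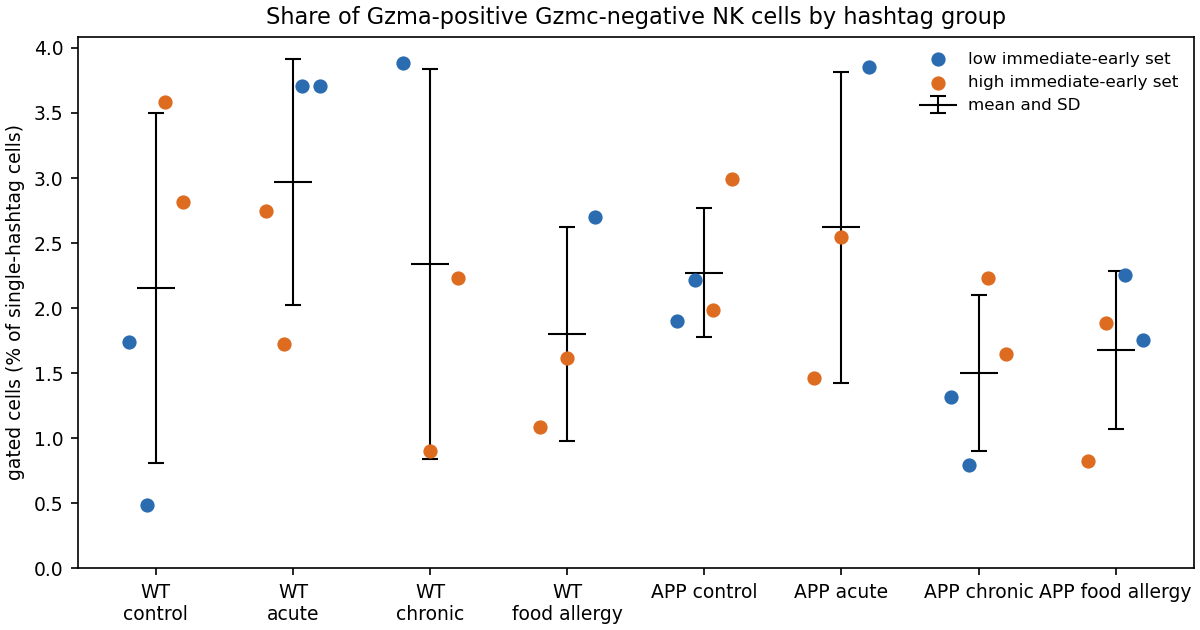
Share of gated cells among single-hashtag cells (percent, vertical axis) for each hashtag group of at least 50 cells, by library (horizontal axis), with the mean (horizontal mark) and SD (error bar) of each library; colour gives the immediate-early set. The 8 ranges overlap, from 0.485% in WT control to 3.89% in WT chronic colitis.

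Gene levels inside the gate were then compared between conditions on the summed counts of 26 hashtag groups with at least 10 gated cells, for 4081 genes, with edgeR's quasi-likelihood test and Benjamini-Hochberg adjustment at 0.05. In such sums, a change in a few cells and a change in every cell cannot be told apart. The T cells of the same hashtag groups were fitted in the same way, and their log2 fold change is given beside some of the genes. The colitis and allergy comparisons each set both genotypes against the same 2 control libraries. WT acute colitis entered with hashtags 4 and 5 only, since its hashtags 6 and 7 held 4 and 2 gated cells.

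Among NK cell genes that the gate did not use, 1 passed the test. Of 124 such genes tested from 11 lists of NK cell receptors, granule genes, maturation genes, transcription factors, cytokines, homing genes and checkpoints, it was the only one called by edgeR in the 7 comparisons: Hcst (DAP10, the adaptor of NKG2D) rose by 1.18 ± 0.243 (SE) on the log2 scale in APP control against WT control (edgeR adjusted p = 0.00382), and by 1.10 in the T cells. Relative to the T cells, no gene passed between the control libraries. DESeq2 called Hcst in APP control against WT control, in APP against WT and in the interaction, and Serpinb9 in food allergy. The WT control library, which stood apart in its short transcripts (below), enters each of these comparisons. Unadjusted p-values under 0.05 numbered 19, 6, 13 and 15 of the 124 in APP against WT, acute colitis, chronic colitis and food allergy, which is 15.3%, 4.84%, 10.5% and 12.1% against 8.09%, 6.52%, 13.9% and 7.47% of all genes tested.

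For Gzma, the library medians of hashtag groups were 5245, 3903, 4725 and 3201 CPM in the WT libraries (control, acute, chronic and allergy), and 4738, 5420.2, 6403 and 4663 CPM in the APP libraries. The values of hashtag groups overlapped between the genotypes, and no test is given because Gzma set the gate. Gzmb was lower in acute colitis by a log2 value of -1.04 ± 0.385 (SE), with an edgeR adjusted p of 0.471, and Eomes in food allergy by -0.51 ± 0.166 (SE), with an edgeR adjusted p of 0.28, so that neither difference passed the test. Il7r, which encodes the IL-7 receptor of helper-like innate lymphocytes and was chosen after its values were seen, had a log2 difference of 2.09 ± 0.63 (SE, edgeR adjusted p = 0.427) in APP acute colitis.

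Between the 2 control libraries, APP cells had more transcript of short genes, among them ribosomal protein genes. Of the 4081 genes, 79 (1.94%) passed, 77 (1.89%) higher and 2 (0.049%) lower in APP, and 25 of the 77 encode ribosomal proteins, as do 81 (1.98%) of all 4081 genes tested. Rps29, a protein of the small ribosomal subunit, was 734, 769, 782 and 580.2 CPM in the WT control groups and 4156, 3953, 3879.5 and 4121 CPM in the APP control groups. No WT value approached an APP value. The log2 fold change of Rps29 was 2.60 ± 0.14 (SE, edgeR adjusted p = 1.72e-13), and 2.72 in the T cells of the same hashtag groups. Rpl38 (2.59), the respiratory chain genes Ndufb1-ps (2.95) and mt-Nd3 (2.63) and the histone gene Hist1h4d (2.42) rose beside it.

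The median transcript length of the genes that rose was 558 bases, and 87.01% were under 1000 bases, against a median of 1717.5 bases and 26.45% among all tested genes. Of the 79 genes, 78 had the same sign in the T cells and 76 were also called there. Against the T cells of the same hashtag groups, a comparison added after the values were seen, none of the 79 passed (109 genes at an unadjusted p under 0.05). In other libraries the median Rps29 level was 3587, 2857 and 1754 CPM in WT acute colitis, chronic colitis and food allergy and 2564, 2374 and 2861 CPM in the APP libraries. The WT control library, at 752 CPM, was thus the lowest. The APP control groups all lay above the medians of these other libraries, so the comparison of controls set the lowest library against the highest.

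The WT control library takes part in most comparisons, and where a fit without it could be made, the count of called genes is given with and without it. In that fit, the colitis and allergy comparisons set APP libraries against APP control alone, so the treated WT libraries leave them too. The genotype comparison there covered the treated libraries only, without either control. A call lost or reversed in that fit may thus reflect the narrower comparison. In acute colitis against control, 25 genes (0.613%) passed, all higher in colitis, 13 of them ribosomal (1.98% of genes tested), with Rps29 at 0.96 ± 0.10 (SE, edgeR adjusted p = 9.16e-07) and 1.05 in T cells; 24 of the 25 were also called in T cells. Without the WT control library, in APP mice alone, none passed, and the log2 fold change of Rps29 was -0.56. No cell cycle gene passed in acute colitis (5 of 17 at an unadjusted p under 0.05, against 6.52% of all genes tested, median -0.55).

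**Figure D5:**
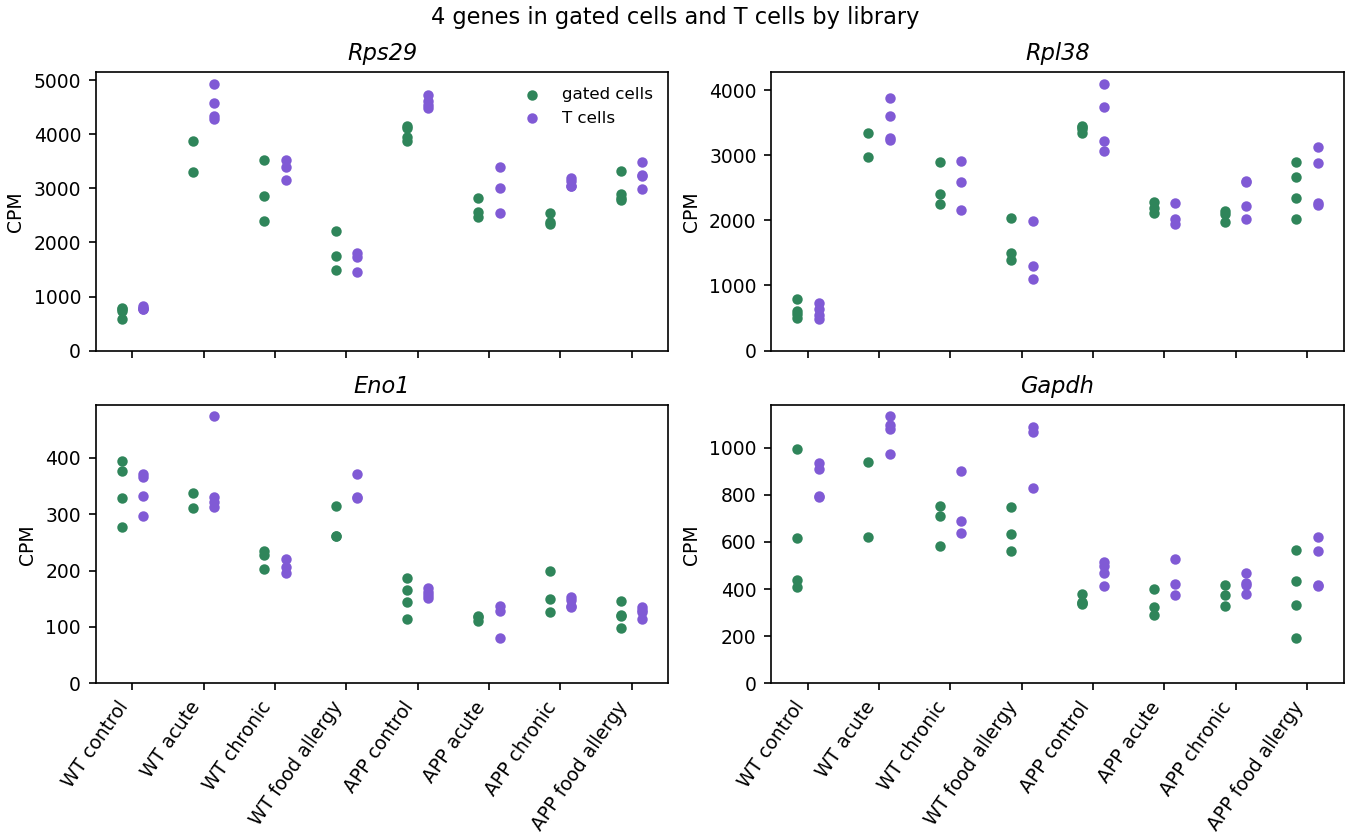
CPM of Rps29, Rpl38, Eno1 and Gapdh (vertical axes) in gated cells and T cells of each hashtag group, by library (horizontal axis). Rps29 and Rpl38 are lowest in WT control in both kinds of cells, and Eno1 is lower in every APP library than in every WT library.

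Between genotypes, with the conditions weighted equally, gated cells of APP mice had lower levels of Eno1 and Gapdh. Eno1, which encodes the glycolytic enzyme enolase, was 98.1 to 199.98 CPM in the 14 APP groups and 203 to 394 CPM in the 12 WT groups, so that the groups did not overlap. By library its median was 352, 325, 228 and 262 CPM in the WT libraries (control, acute, chronic and allergy), and 154, 118, 149 and 120.5 CPM in APP mice. The log2 fold change was -1.08 ± 0.11 (SE, edgeR adjusted p = 5.03e-07), and -1.08 in T cells. Gapdh, a further glycolytic enzyme, differed by -0.89 ± 0.15 (SE, edgeR adjusted p = 0.000934), and by -0.90 in T cells. On sums over each library, the unit by which genotype is replicated, Eno1 was -1.10 (edgeR adjusted p = 0.0671) and Gapdh -0.87 (0.0824), and neither passed.

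In all, 24 genes (0.588%) passed between genotypes, 16 higher (0.392%) and 8 lower (0.196%) in APP, all 24 with the same sign in T cells and 21 called there. Without the WT control library 6 passed, among them Eno1 (-1.10, edgeR adjusted p = 4.81e-05), Gapdh (-0.96, 0.00767), the mitochondrial mt-Atp8 (1.01, 0.0081) and Lars2, a mitochondrial tRNA synthetase (-0.96, 0.0148). Of the 8 named ribosomal genes that rose, 6 changed sign in that fit, with Rps29 at 0.63 before and -0.03 after, and none of the 8 passed. The call of Lars2 (-0.67, edgeR adjusted p = 0.0397, in the fit with all libraries) was lost in 15 of 26 fits that left out 1 hashtag group and in groups of at least 20 cells (edgeR adjusted p = 0.0951). On library sums neither Lars2 (-0.53, edgeR adjusted p = 0.745) nor mt-Atp8 (1.10, 0.302) passed.

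Jun and Myc were also lower in APP cells. Jun, an immediate-early subunit of AP-1, had library medians of 271, 431, 121 and 157 CPM in the WT libraries and 92.7, 92.3, 31.4 and 84.2 CPM in the APP libraries, in the order control, acute, chronic and allergy, with overlapping ranges. Its log2 fold change was -1.71 ± 0.35 (SE, edgeR adjusted p = 0.00968), against -0.79 in T cells, where it did not pass (edgeR adjusted p = 0.392), and the difference between gated and T cells did not pass either (log2 -0.74, edgeR adjusted p = 1). Myc, which drives growth and metabolism, differed by -0.77 ± 0.16 (SE, edgeR adjusted p = 0.0143), and by -0.16 in T cells. Of 9 tested immediate-early genes 1 fell, against 0.196% of all genes, with a median of -1.01 in gated cells and -0.48 in T cells. In the high immediate-early set, the cells outside the gate had 4690 to 6478 CPM in APP hashtag groups. The WT groups had 6778 to 10144 CPM, apart from WT chronic colitis hashtag 6 at 3779 CPM. In the low set these cells had 691 to 1025 CPM in APP and 1000 to 1996 CPM in WT groups. With the immediate-early level as a covariate Jun was -1.36 (edgeR adjusted p = 0.0458) and Myc -0.95 (0.00113). On library sums neither passed (Jun -1.82, edgeR adjusted p = 0.0989, and Myc -0.70, 0.232). Without the WT control library Jun was -1.88 (edgeR adjusted p = 0.0807) and Myc -0.80 (0.0936), and both also lost the call without cells with 2 other-lineage markers (-1.25, 0.335, and -0.49, 0.739). The call of Jun also ended without WT acute colitis hashtag 4 (-1.56, edgeR adjusted p = 0.0712) or WT food allergy hashtag 5 (-1.45, 0.0862), and that of Myc without WT acute colitis hashtag 5 (-0.74, 0.0678).

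Relative to T cells, 1 gene passed between genotypes. Car2, which encodes carbonic anhydrase 2, did not differ in the gated cells by the test (log2 0.07 ± 0.133 SE, edgeR adjusted p = 0.963) but was 2.99 higher in APP T cells (edgeR adjusted p = 1.4e-05), so the difference relative to T cells was -2.91 (edgeR adjusted p = 1.23e-05).

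In chronic colitis, 88 genes (2.16%) passed, 81 (1.98%) higher and 7 (0.172%) lower than in control. None passed without the WT control library, where APP mice alone were compared, or on library sums, which leave fewer samples to test. Of the 81 that rose, 17 encode ribosomal proteins, against 1.98% of the genes tested, and 76.5% have transcripts under 1000 bases, against 26.5%. All 81 had the same sign in T cells, and 48 of the 88 genes were also called there. The neutrophil genes Camp (9.70 ± 1.88 SE), Ngp (9.11), Ltf (8.80) and S100a9 (8.36) rose most. S100a8 was 0, 0, 41.6 and 0 CPM in WT control and 72.4, 48.0, 50.5 and 69.8 CPM in APP control, and 16508, 2071 and 1572 CPM in WT and 57.1, 15344 and 15.7 CPM in APP chronic colitis. A single APP group was high, and the other 2 lay within the control range. Its log2 fold change was 7.46 ± 1.47 (SE, edgeR adjusted p = 0.00444), and -0.23 without the 26 cells with neutrophil genes; it was 3.84 (edgeR adjusted p = 0.399) without APP chronic colitis hashtag 6, as Camp was 4.77 (edgeR adjusted p = 1), and the calls of Ngp, Ltf and S100a9 also ended without it. S100a9 was 0.36 (edgeR adjusted p = 0.795) without the 26 cells, and Camp, Ngp and Ltf were then too low to be tested. Without the WT control library S100a8 was 6.46 and S100a9 6.16 (edgeR adjusted p = 0.786 for both). In all, 5 of 8 tested neutrophil genes rose.

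Some replication genes were also among the 81. Rrm2, a subunit of ribonucleotide reductase, was 19.8, 18.8, 45.3 and 0 CPM in WT control and 10.3, 41.2, 21.6 and 5.81 CPM in APP control, and 237, 137 and 71.7 CPM in WT and 238, 25.3 and 102 CPM in APP chronic colitis. A single chronic group, in APP mice, lay inside the control range. The log2 fold change of Rrm2 was 2.47 ± 0.60 (SE, edgeR adjusted p = 0.0252), and 0.50 in T cells. Tyms (thymidylate synthase) was 2.68 ± 0.68 (SE, edgeR adjusted p = 0.0342), Pclaf, a PCNA-binding factor, 2.27 ± 0.61 (SE, edgeR adjusted p = 0.0493) and Pcna, the replication clamp, 1.18 ± 0.301 (SE, edgeR adjusted p = 0.0358).

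Of 17 tested cell cycle genes, 4 rose, against 1.98% of all genes tested, and 16 were above 0. Their median was 1.23 in gated cells, against -0.01 over all genes tested, and 0.30 in T cells. Mki67 was detected in 11.3% of gated cells in WT and 9.89% in APP chronic colitis, against 3.36% and 5.23% in the controls; in food allergy the shares were 7.25% and 9.43%, and in acute colitis 2.83% and 2.66%. The chronic colitis cells were deeper, with medians of 4869.5 and 3776 UMIs against 2723 and 3057 UMIs in the controls. After thinning to 1000 UMIs, Mki67 was detected in 5.00% (4 of 80 cells) and 2.25% (2 of 89) in chronic colitis and in 2.05% (3 of 146) and 1.99% (3 of 151) in the controls, too few cells to show a difference. Without the 26 cells with neutrophil genes, 71 genes passed and Rrm2 (2.37, edgeR adjusted p = 0.0202) and Tyms (2.66, 0.0259) were among them. The calls did not hold without the WT control library (Rrm2 2.47, edgeR adjusted p = 0.786, Tyms 2.51, 0.949, and Pclaf 2.03, 0.987) or in hashtag groups of at least 20 cells (Rrm2 1.77 and Tyms 2.08, both 0.293), and leaving out 1 hashtag group at a time ended the call of Rrm2 in 6 of 26 fits, of Tyms in 10 and of Pclaf in 19. The log2 fold change of Rrm2 was lowest without APP chronic colitis hashtag 4, at 2.05 (edgeR adjusted p = 0.149). Relative to T cells of the same hashtag groups, 0 genes passed in chronic colitis by edgeR, with 314 at an unadjusted p under 0.05. The log2 fold change relative to T cells was 2.07 for Rrm2, 2.265 for Tyms and 1.39 for Pclaf. Of the 7 genes that fell, Batf, an AP-1 factor of activated lymphocytes, did so by 1.27 (edgeR adjusted p = 0.0456), lost in 14 of the 24 fits in which it was tested.

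In food allergy, 25 genes (0.613%) passed, 24 higher (0.588%) and 1 lower (0.0245%). Retnlg (8.07) and S100a9 (7.19), both neutrophil genes, had the largest fold changes. Without the 26 cells with neutrophil genes S100a9 was 1.66 (edgeR adjusted p = 0.0817) and Retnlg was too low to be tested. Leaving out 1 hashtag group at a time ended the call of Retnlg in 8 of 26 fits (3.73 without APP food allergy hashtag 7) and that of S100a9 in 10 (4.27, its lowest value, without WT food allergy hashtag 5). Among the genes that rose, 16 of the 24 encode ribosomal proteins (1.98% of genes tested), for example Rpl37 at 0.73. Lmo4, a LIM-domain transcription regulator, rose by 1.29 and Sfpq, a splicing factor, fell by 0.65 (edgeR adjusted p = 0.029), but their calls were lost in 14 and 10 of the 26 fits. All 25 had the same sign in T cells, 17 were called there, and none passed without the WT control library, where Lmo4 was 1.53 and Sfpq -0.76 (edgeR adjusted p = 1 for both). The named ribosomal genes that rose (Rpl37, Rps28, Rpl41, Rpl35, Rpl39 and Rpl37a) all changed sign in that fit.

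Within APP mice, acute colitis differed from control in 0 of 4081 genes (0%) by edgeR, with 175 at an unadjusted p under 0.05, and in 8 by DESeq2. In groups of at least 20 cells edgeR called 17 genes higher and 1 lower. It called 7 higher with the hashtag number as a replicate block, and 58 higher and 7 lower without a filter. All 8 tested neutrophil genes had an unadjusted edgeR p under 0.05, against 4.29% of all genes tested. Their median log2 fold change was 7.31. Of the 26 cells with neutrophil genes, 11 lay in APP acute colitis and 0 in APP control. Hashtags 7 and 5 of APP acute colitis held 8 and 3 of them, with 5403 and 2866 S100a8 UMIs. Hashtag 4 held 0 of them, with 10 UMIs. No value of the 8 genes without those cells is given here. The effect of acute colitis differed between genotypes in 31 genes (0.76%), 1 higher (0.0245%) and 30 lower (0.735%) in APP. Only hashtags 4 and 5 of WT acute colitis entered this comparison. Lgals3, which encodes the lectin galectin-3 of myeloid cells, had an interaction of 3.65 ± 0.70 (SE, edgeR adjusted p = 0.00322), and 2.49 (edgeR adjusted p = 0.24) without the 26 cells with neutrophil genes and 3.34 (edgeR adjusted p = 0.0777) without WT acute colitis hashtag 5. The 30 lower genes included Rps29, at -3.04 (edgeR adjusted p = 9.78e-11) and -3.10 in T cells, and all 31 had the same sign in T cells, 30 of them called there.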

How the data were processed

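CD45.2+ cells of the brain were sequenced as 8 pooled 10x libraries of hashtagged cells. The authors deposited raw UMI counts per barcode, made with Cell Ranger 6.1.2 against mm10 per the labels (the matrix headers name Cell Ranger 4). From these counts, barcodes were filtered and gated as described above in Python 3.11.15 (pandas 2.3.3, scipy 1.17.1). The hashtag ratio removes doublets that span hashtags, and no doublet caller was run, so doublets within a hashtag remain. The members, gene lists and tests were chosen with earlier results of these data known.

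Counts were summed over gated cells per hashtag group and tested in edgeR 4.0.16 (R 4.3.3) with TMM scaling, filterByExpr, 1 coefficient per library and the quasi-likelihood test, with Benjamini-Hochberg adjustment over all 4081 genes; 14 gated cells in hashtag groups with fewer than 10 were outside the fit, and a WT chronic colitis hashtag group of 31 cells was outside the shares. Tested groups held 41920 to 389287 UMIs, which limits precision for low genes. Named genes were members of the gene lists, the gate genes, and up to 12 that rose and 12 that fell most per comparison. The 15 with the largest ratio to other cells were also named, and Gm or Rik models were not. A further list of 51 genes was added after the values were seen, with Cma1, Inpp4b and Car2 among them. On simulated counts of 3800 genes for APP against WT, 98% of 100 changes of 1 on the log2 scale were called. So were 100% of 100 changes of 2, and 8 unchanged genes. The changed genes were drawn from those at or above the median count. Every simulated gene had the same spread (coefficient of variation 0.253). These shares thus do not cover low genes, genes with a wider spread or the other comparisons. Alternatives included DESeq2 1.42.0, other scalings, filters and gates, and leaving out each hashtag group. Transcript lengths came from GENCODE vM21. Some results were left out and are not reported here.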

Additional observations from a re-analysis of the deposited data

Results flagged for a closer look

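Of 46 sets of 4 hashtag groups examined for a value far from the others, 2 stood out, and chance alone gives about 1 in 20. S100a8, a neutrophil gene, was 4124 CPM in the gated cells of APP food allergy hashtag 7 and 58.1 to 119 CPM in the other groups of that library. It was 41.6 CPM in WT control hashtag 6 and 0 in the other 3. The first of these hashtag groups held 1 gated cell with at least 3 neutrophil genes and the second held 0 (11 S100a8 UMIs in all); the cause was not tested.

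The effect of acute colitis differed between the genotypes in 31 genes by the interaction term of the edgeR fit. Lgals3 had a log2 interaction of 3.65. The other 12 named genes were lower in APP mice, Ndufb1-ps by -3.30, Rpl38 by -3.10, Rps29 by -3.04, mt-Nd3 by -3.04, Rps28 by -2.86, Dpm3 by -2.66, Rps21 by -2.43, Rps27 by -2.39, Atp5k by -2.33, Rpl39 by -2.30, Rpl37 by -2.22 and Ndufa3 by -2.09. These 12 genes have short transcripts and the WT control library enters the contrast. The cause was not tested.

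Among barcodes outside the comparisons, 44 of the 4806 that passed the other filters without a single leading hashtag met the gate (0.916%).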

How the results depend on the processing

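No difference in share passed a test, and 8 of the 10 changed sign under some alternative; APP chronic colitis and APP food allergy against their control stayed negative under every alternative run. APP against WT in acute colitis changed sign to 0.553 percentage points with a hashtag count of at least 100 and 5 times the second, 0.380 with at least 3 NK genes, 0.199 after thinning, 0.291 among cells that are not neutrophils, 7.78 of NK cells, 0.390 in groups of at least 200 cells and 0.150 in the low immediate-early set. WT acute colitis changed to -0.0591 with at least 3 NK genes and -0.969 in the high set, WT chronic colitis to -0.178 with further T cell genes at 0 and -1.64 in the high set, and WT food allergy to 2.53 of NK cells and 1.59 in the low set. APP against WT in food allergy changed to 0.267 after thinning and 0.0051 in the high set, where APP acute colitis was -0.484, APP against WT in control -0.711 and in chronic colitis 0.377. Leaving out 1 hashtag group at a time gave -0.267 to 0.926 for APP acute colitis against control, -1.02 to -0.535 for its chronic colitis and -0.786 to -0.309 for its food allergy, 0.254 to 1.29, -0.593 to 0.901 and -0.914 to 0.119 for WT acute colitis, chronic colitis and food allergy, and -0.441 to 0.592, -0.962 to 0.232, -1.56 to -0.0652 and -0.479 to 0.331 for APP against WT in the control, acute, chronic and allergy libraries.

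Counts of called genes moved as follows, in the order APP against WT, acute colitis, chronic colitis and food allergy. Without a filter they were 88, 84, 190 and 56 (with 65 in APP acute colitis and 77 in the interaction), on library sums 1, 0, 0 and 0, without the WT control library 6, 0, 0 and 0, and relative to T cells 1, 0, 0 and 0 (0 also between the controls and in the interaction). DESeq2 called 44 in food allergy and 8 in APP acute colitis. Total UMIs as scaling gave 16 in acute colitis and 13 in food allergy. Groups of at least 20 cells gave 48 in chronic colitis and 18 in APP acute colitis, and 26 genes were called in chronic colitis without cells with 2 other-lineage markers, where fewer genes could be tested (2153). Leaving out 1 hashtag group gave 16 to 27 for APP against WT, 14 to 26 for acute colitis, 46 to 97 for chronic colitis (46 without WT control hashtag 7), 13 to 30 in food allergy (13 without APP control hashtag 6), 0 to 7 in APP acute colitis, 57 to 80 between controls and 21 to 33 in the interaction. Same-numbered hashtags did not deviate together (median r -0.0098 over 73 pairs, 17 over 0.1, and 10 of 26 groups closest to their own number), and with the hashtag number as a replicate block the counts were 21, 21, 109 and 23, with 79 between controls, 31 in the interaction and 7 in APP acute colitis.

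Of the named genes, those that changed sign did so without the WT control library, except S100a8 in chronic colitis (-0.23 without cells with neutrophil genes). The fit without the WT control library compares each treatment within APP mice alone, and the genotypes over treated libraries only. Between genotypes Rps29 was then -0.029, Rpl38 -0.088, Rps28 -0.060, Rpl39 -0.013, Rpl37 -0.037 and Rpl41 -0.007. In acute colitis Ndufb1-ps was -0.57, Rps28 -0.44, Rpl38 -0.57, Rps29 -0.56, Rpl37 -0.24, Rpl41 -0.035, Rps21 -0.37, Ndufa3 -0.21 and Rpl39 -0.32. In food allergy Rpl37 was -0.19, Rps28 -0.31, Rpl41 -0.11, Rpl35 -0.011, Rpl39 -0.23 and Rpl37a -0.17. Under the alternatives that left out no single hashtag group, 822 other values of named genes kept the call and 197 lost it. The causes were not tested. Depth limits genes of a few CPM, and no library is replicated.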

Other observations

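Within the gate, cells with more of the 4 NK genes detected were deeper. The 175 cells with 2 of them had a median of 2535 UMIs, the 416 with 3 had 3154.5 UMIs and the 351 with 4 had 3757 UMIs, and their Eomes level was 332, 378 and 390.1 CPM. Klra8 ran the other way, at 599, 439.8 and 402 CPM. The 60 cells with Gzma, no Gzmc and only 1 NK gene, just outside the gate, had a median of 1726.5 UMIs and Eomes at 259.5 CPM, well above the 118 CPM of NK cells without Gzma.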
